A study of Mus musculus with 15 samples.

Results

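The neuronal potassium channel genes described here are 34 mouse genes taken by symbol from a fixed list, and all 34 were found among the 27179 gene identifiers of the count table. They cover pore-forming subunits of voltage-gated channels (Kv), inward rectifiers (Kir), channels with tandem pore domains (K2P) and channels opened by internal calcium or sodium, together with the 3 cytosolic Kv beta subunits. The ether-a-go-go genes (Kcnh) were not members. All 34 passed the filter on low counts and were among the 16816 genes tested, the smallest count of any member in any library being 330.

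Potassium channels let potassium leave the cell along its gradient and so pull the membrane back towards rest. Kv channels open on depolarization and repolarize the action potential, Kir and K2P channels set the resting potential, and calcium- or sodium-activated channels produce the afterhyperpolarization that follows spikes. In the medial prefrontal cortex (mPFC), a cortical region that takes part in fear extinction, these currents set how readily pyramidal cells and interneurons fire. One member is an exception to the name of the set: Kcnj10 encodes Kir4.1, a channel known above all from astrocytes and oligodendrocytes.

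Bulk RNA of dissected mPFC from C57BL/6J mice was sequenced in 15 libraries, which fall into 4 groups by ABX treatment and by sampling after or before fear extinction, in which a learned fear response wanes as its cue is met without harm. Post-extinction ABX, post-extinction non-ABX and pre-extinction ABX each hold 4 libraries, and pre-extinction non-ABX holds 3 (replicates 1, 3 and 4). ABX commonly stands for an antibiotic cocktail; its agents and the age of the mice are not given here. Nothing says whether each library is 1 animal, so each p-value reflects the scatter among these libraries, which may be in part technical. The 4 groups include none sampled later without extinction, so extinction cannot be told apart from time or sampling session.

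Depth was 44254906 to 57929503 counts per library. Defining markers of excitatory neurons, interneurons, astrocytes, oligodendrocytes and microglia (6 genes each) were detected in every library. The summed level of 6 blood markers reached 9.53 CPM (counts scaled to library size, with TMM factors) in post-extinction ABX replicate 1 and at most 2.37 CPM elsewhere. Their highest values in any library were 3.62 CPM for S100a9, 2.26 for Ngp and 2.17 for S100a8, against 1.47 for Alas2 and 0.06 for Hbb-bs. Among these markers the hemoglobin gene Hba-a1 was at 0 counts in all 15 libraries, while Alas2 averaged 0.53 CPM. The 0 of Hba-a1 therefore does not show that blood was absent. Libraries differed in how their counts depended on the GC content of transcripts. The fitted level at 60% GC minus that at 40% GC ran from -0.25 to 0.24 (log2) in post-extinction ABX libraries, from 0.09 to 0.57 in post-extinction non-ABX libraries, from -0.82 to 0.08 in pre-extinction ABX libraries and from -0.28 to 0.65 in pre-extinction non-ABX libraries. This GC trend runs alongside several results below, whose values are therefore also given with a GC offset, a spline fitted to each library on the GC content of a gene's longest transcript.

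The pore of every potassium channel is lined by a short selectivity filter, the stretch of backbone that strips water from potassium ions, and its codons are the feature that the pore-forming members share. In the coding sequences of GENCODE M21 transcripts (build GRCm38, the same as mm10), the codons of its glycine-tyrosine-glycine core were sought in frame on the coding strand as GGNTANGGN, and the form with phenylalanine or leucine in the middle as GGNTTNGGN. The tyrosine form was present in 27 of 34 members and either form in 31, against 6.06% and 16.6% of 21523 genes searched. The members without a match were the beta subunits Kcnab1, Kcnab2 and Kcnab3, which have no pore. A match by letters alone can lie outside the pore, as 1 of the 2 matches in Kcna6 (codon 242) and in Kcnq3 (codon 502) did. The windows below belong to members on which the comparisons turn, with the 9 bases of the core in capitals and 18 bases on either side, read 5′ to 3′ on the coding strand.
Kcnma1, chr14:23528395-23528439, minus strand: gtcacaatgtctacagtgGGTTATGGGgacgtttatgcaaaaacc
Kcnb2, chr1:15710034-15710078, plus strand: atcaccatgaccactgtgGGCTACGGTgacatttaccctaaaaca
Kcnc1, chr7:46427961-46428005, plus strand: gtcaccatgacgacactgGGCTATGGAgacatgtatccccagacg
Kcnv1, chr15:45109271-45109315, minus strand: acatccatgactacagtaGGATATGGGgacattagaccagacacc
Kcnj3, chr2:55437615-55437659, plus strand: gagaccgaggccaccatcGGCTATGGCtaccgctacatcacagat
Kcnj4, chr15:79485349-79485393, minus strand: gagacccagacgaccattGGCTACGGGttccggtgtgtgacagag
Kcnt1, chr2:25894355-25894399, plus strand: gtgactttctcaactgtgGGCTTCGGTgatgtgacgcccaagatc
Each of these 7 windows lies within 1 coding exon. Kcnk4 shows what tandem pores look like at this level, with a tyrosine form whose core starts at codon 106 and a phenylalanine form whose core starts at codon 215, both windows crossing an exon junction (chromosome 19, minus strand).
Kcnk4, first pore: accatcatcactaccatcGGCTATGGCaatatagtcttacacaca
Kcnk4, second pore: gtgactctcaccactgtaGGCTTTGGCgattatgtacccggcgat

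Per kilobase of longest transcript, the level of the 34 members spanned from 119 CPM per kb for Kcnab2 to 1.17 CPM per kb for Kcnb2, as means over the 15 libraries. Kcnab2, the beta subunit that binds axonal Kv1 channels, was the highest member (119 ± 19.4 CPM per kb, SD, n = 15), and Kcna1, the Kv1.1 subunit of axons and terminals, came next at 72.3 ± 5.25. Kcnj10 was at 47.3 ± 4.50, Kcnj9, the GIRK3 subunit of G protein-gated channels, at 45.7 ± 4.22 and Kcna2, the Kv1.2 partner of Kcna1, at 44.01 ± 4.21 CPM per kb, and these 3 neighbours differed by less than their SDs. Kcnj4 (Kir2.3, 41.6 ± 12.8) and Kcnk1 (TWIK1, 38.1 ± 2.74) followed. The Kv3 subunits Kcnc2 and Kcnc1, which let fast-spiking cells fire at high rates, and Kcnt1, the Slack sodium-activated channel, were at 30.4, 30.4 and 30.3 CPM per kb and could not be ordered. Genes at the low end were Kcnn3 (SK3, 2.24 ± 0.251), Kcnk9 (TASK3, 2.13 ± 0.336) and Kcnb2 (Kv2.2, 1.17 ± 0.157 CPM per kb). Longest transcripts can overstate the length in use, so these levels are approximate; those of Kcnb2 and Kcnma1 rest on transcripts of 14.8 and 12.1 kb.

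**Figure D1:**
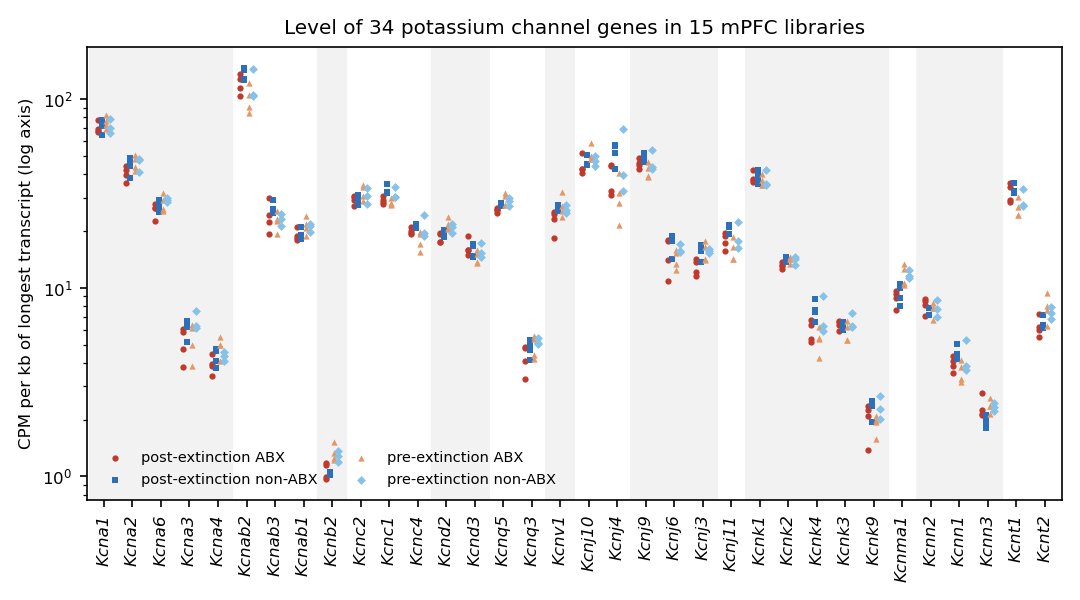
Level of the 34 genes in CPM per kb of longest transcript (log axis), 1 point per library, genes ordered by family (shaded bands) and by level within it, with groups from left to right as post-extinction ABX, post-extinction non-ABX, pre-extinction ABX and pre-extinction non-ABX. Kcnab2 is highest at 119 and Kcnb2 lowest at 1.17 CPM per kb, and for most genes the 4 groups overlap.

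Whether channel genes differed after extinction was asked first, comparing post- with pre-extinction libraries averaged over ABX and non-ABX. Kcnma1 and Kcnb2 were lower, and edgeR called no member higher. These 2 called members of 34 stand against 0.963% of all genes tested in edgeR's quasi-likelihood test at a Benjamini-Hochberg adjusted p under 0.05. At an unadjusted p under 0.05, 10 members passed, 8 lower and 2 higher, against 20.4% of all genes. DESeq2 called 4 members, all lower (these 2 with Kcnd2 and Kcnt2), against 4.19% of all genes in either direction. Limma-voom with library quality weights called 20 members, 11 lower and 9 higher, against 37.8% of all genes. Of the 34 fold changes 19 were negative, with a median of -0.04 against 0.00 over all genes.

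Kcnma1 (Entrez 16531, chromosome 14, 23292288 to 24005110, mm10) encodes the pore of the BK channel, which opens to calcium and voltage together and shortens the action potential. Kcnma1 had 92.3, 116, 113 and 106 CPM in post-extinction ABX libraries, 96.3, 120.0, 106 and 127 CPM in post-extinction non-ABX libraries, 125, 151, 161 and 129 CPM in pre-extinction ABX libraries and 139, 136 and 149.8 CPM in pre-extinction non-ABX libraries. Post-extinction values lay below pre-extinction values in each arm without overlap; across arms, post-extinction non-ABX replicate 4 was above the lowest pre-extinction ABX library. Kcnma1 was 22.6% lower after extinction (log2 fold change -0.37, standard error 0.07, adjusted p in edgeR 0.0280). With the GC offset its log2 fold change was -0.29 (adjusted p in edgeR 0.0414). Its transcript overlaps 4930519K11Rik on the other strand by 1016 bases, and reads from the 2 strands cannot be told apart in these libraries.

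Kcnb2 (Entrez 98741, chromosome 1, 15286925 to 15723751, mm10) encodes Kv2.2, a delayed rectifier. Kcnb2 was at 14.3, 16.97, 17.4 and 14.8 CPM in post-extinction ABX libraries, 15.6, 15.4, 15.1 and 15.6 CPM in post-extinction non-ABX libraries, 18.6, 19.8, 22.5 and 18.04 CPM in pre-extinction ABX libraries and 18.98, 17.6 and 20.3 CPM in pre-extinction non-ABX libraries. All 8 post-extinction values were below all 7 pre-extinction values, a separation that 0.22% of all genes showed in this direction and that no other member showed. Kcnb2 was 19.1% lower after extinction (log2 fold change -0.31, standard error 0.06, adjusted p in edgeR 0.0307). With the GC offset its log2 fold change was -0.16 and it was not called (adjusted p = 0.236); its transcript has 39.3% GC, the second lowest of the members. With the offset 1.96% of all genes were called in this comparison.

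Both calls ended when any 1 of 7 libraries was left out: post-extinction ABX replicate 4, post-extinction non-ABX replicates 1 and 3, pre-extinction ABX replicates 2 and 3, and pre-extinction non-ABX replicates 1 and 4. That of Kcnma1 also ended without post-extinction ABX replicate 3, and that of Kcnb2 without post-extinction non-ABX replicate 2. Over all 15 omissions the log2 fold change of Kcnma1 stayed between -0.40 and -0.34 (adjusted p 0.0155 to 0.1105) and that of Kcnb2 between -0.33 and -0.27 (adjusted p 0.0155 to 0.132).

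Kcnd2 came next after Kcnma1 and Kcnb2 by p. It encodes Kv4.2, which carries the A-type current of dendrites. Kcnd2 had 101, 99.2, 89.5 and 90.5 CPM in post-extinction ABX libraries, 95.2, 95.4, 100.5 and 104 CPM in post-extinction non-ABX libraries, 112, 106, 123 and 105 CPM in pre-extinction ABX libraries and 108, 101 and 112 CPM in pre-extinction non-ABX libraries. Post- and pre-extinction libraries did not overlap in the ABX arm and overlapped in the non-ABX arm. The log2 fold change over both arms was -0.17 (standard error 0.05, adjusted p in edgeR 0.0921), short of the threshold. With the GC offset it was -0.08 (adjusted p in edgeR 0.169). The sodium-activated channels had opposite signs. Kcnt2 (Slick) had a log2 fold change of -0.26 and Kcnt1 (Slack) one of 0.22 (edgeR adjusted p = 0.116 and 0.118). Their transcripts have 36.6% and 54.8% GC. With the GC offset the values were -0.11 and 0.12 (edgeR adjusted p = 0.378 and 0.0832). With block and GC offset Kcnt1 was called higher (0.12, edgeR adjusted p = 0.0459), where 586 of 16232 genes were called.
Kcnt1 was at 190.3, 194, 227 and 239 CPM in post-extinction ABX libraries, 210.3, 239, 216 and 216 CPM in post-extinction non-ABX libraries, 162, 177, 162 and 202 CPM in pre-extinction ABX libraries and 183, 222 and 180.3 CPM in pre-extinction non-ABX libraries. Its post- and pre-extinction libraries overlapped in both arms.

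**Figure D2:**
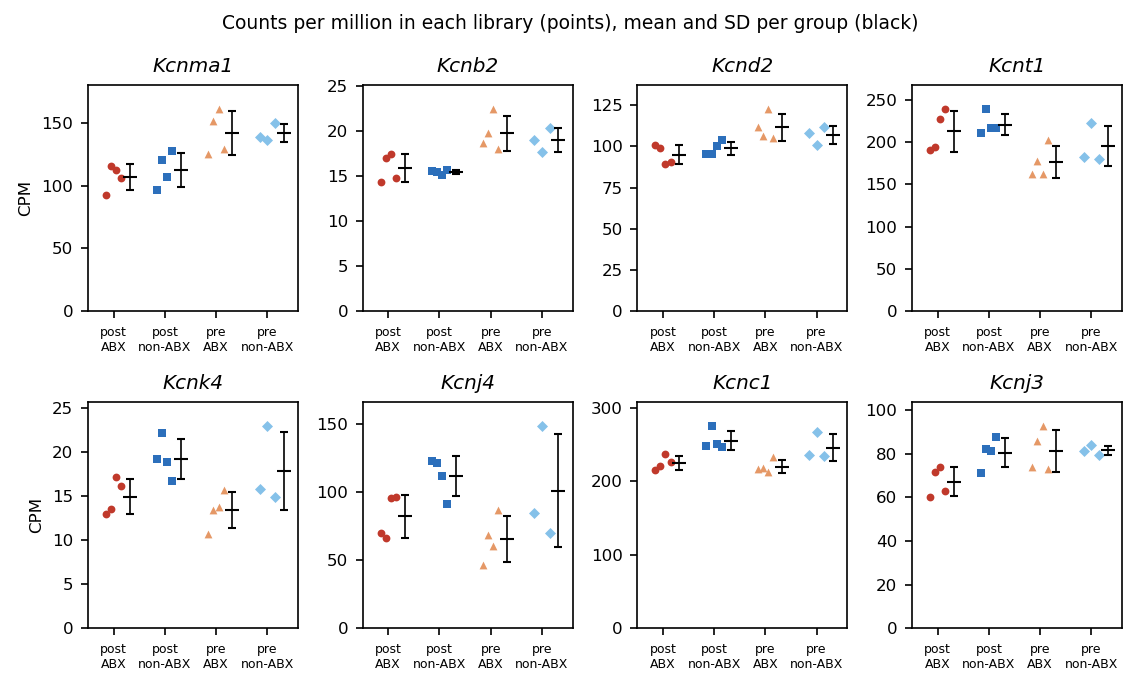
CPM of 8 genes in every library (points), with the mean and SD of each group in black, groups from left to right as post-extinction ABX, post-extinction non-ABX, pre-extinction ABX and pre-extinction non-ABX. Kcnma1 and Kcnb2 are lower in the post-extinction groups, and Kcnk4 and Kcnj4 are lower on average in ABX libraries but overlap between ABX and non-ABX groups at both stages.

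Within the ABX arm alone, edgeR called 0 members between post- and pre-extinction libraries, where it called 0.0951% of all genes. DESeq2 called 3 members, against 1.68% of all genes, and limma-voom 5, against 2.77%. Members at an unadjusted p under 0.05 numbered 12, of which 11 were lower and 1, Kcnt1, higher, against 16.6% of all genes in either direction. Kcnma1 had a log2 fold change of -0.41 (standard error 0.10, adjusted p in edgeR 0.122), Kcnb2 -0.31 (0.138) and Kcnd2 -0.23 (0.154). Libraries did not overlap for 4 members, all lower after extinction (Kcnb2, Kcnd2, Kcnma1 and Kcnq5), against 2.78% of all genes in that direction. Kcnq5 had 181, 185, 181 and 173 CPM in post-extinction ABX libraries, 193, 189.8, 197 and 195 CPM in post-extinction non-ABX libraries, 215, 191, 223 and 192 CPM in pre-extinction ABX libraries and 200.4, 189.5 and 209 CPM in pre-extinction non-ABX libraries. Kcnq5 encodes a Kv7 subunit of the M-current, which restrains repetitive firing.

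Within the non-ABX arm edgeR called 0 members and 0% of all genes between post- and pre-extinction libraries, and DESeq2 called 0 members, against 0.113% of all genes. Limma-voom called 11 members, 4 lower and 7 higher, against 19% of all genes. At an unadjusted p under 0.05 there were 3 members, all lower, against 4.94% of all genes in either direction. The log2 fold changes were -0.30 for Kcnb2 (standard error 0.09, adjusted p in edgeR 0.749), -0.33 for Kcnma1 (0.830) and -0.24 for Kcnn3 (0.896). These 3 were also the members whose libraries did not overlap and were lower, against 3.57% of all genes. Kcnab3 was the 1 member without overlap in the other direction, against 2.33%. The pre-extinction non-ABX group has 3 libraries, so this arm is the less precise.

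Whether the stage difference itself depended on ABX was tested by the interaction. It was called by edgeR for 0 members and for 0% of all genes, by DESeq2 for 0 members and 0.0238% of all genes and by limma-voom for 0 of either. An unadjusted p under 0.05 was reached by 0 members against 2.06% of all genes. The smallest p-values were those of Kcna4 (log2 -0.31, SE 0.15), Kcnv1 (-0.28, SE 0.14) and Kcnj3 (-0.26, SE 0.13), each with an edgeR adjusted p of 1.00. For Kcnma1 the interaction was -0.08 (SE 0.15) and for Kcnb2 -0.01 (SE 0.12), so a difference between arms was not detectable at this spread. Kcna4 was at 18.3, 21.5, 18.9 and 16.4 CPM in post-extinction ABX libraries, 19.7, 18.02, 22.2 and 22.6 CPM in post-extinction non-ABX libraries, 23.8, 26.4, 23.9 and 19.6 CPM in pre-extinction ABX libraries and 20.8, 19.5 and 21.8 CPM in pre-extinction non-ABX libraries. Kcna4 encodes Kv1.4, an inactivating subunit of axons, and its post-extinction ABX libraries were the lowest of the 4 groups on average.

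The ABX comparison, averaged over both stages, asked how channel expression differed with treatment. No member passed edgeR's test: 0 of 34 were called, against 0.624% of all genes. The smallest edgeR adjusted p was 0.0634, and 10 members had an unadjusted p under 0.05, all lower. That share is near the 30.6% of all genes, which counts lower and higher genes together. DESeq2 called 4 members, against 11.8% of all genes, and limma-voom 1, against 5.36%. Fold changes were negative for 24 of 34 members, with a median of -0.07 against 0.01 over all genes. The 3 members of smallest p were Kcnc1, Kcnk4 and Kcnj4.

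Kcnc1 (Entrez 16502, chromosome 7, 46396219 to 46438706, mm10) encodes Kv3.1, a subunit of the fast delayed rectifier of parvalbumin interneurons. Kcnc1 had 215, 221, 237 and 226 CPM in post-extinction ABX libraries, 249, 275, 251 and 247 CPM in post-extinction non-ABX libraries, 217, 218, 212 and 233 CPM in pre-extinction ABX libraries and 236, 267 and 234 CPM in pre-extinction non-ABX libraries. The ABX libraries were below the non-ABX libraries without overlap after extinction and also before extinction. The averaged log2 fold change was -0.17 (standard error 0.04, adjusted p in edgeR 0.0634). With the GC offset it was 0.04 (adjusted p = 0.690), so its direction turned with that scaling.

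Kcnk4 (Entrez 16528, chromosome 19, 6925662 to 6934883, mm10) encodes TRAAK, a mechanosensitive K2P leak channel of axons. Kcnk4 was at 13.02, 13.6, 17.2 and 16.1 CPM in post-extinction ABX libraries, 19.3, 22.2, 18.9 and 16.7 CPM in post-extinction non-ABX libraries, 10.7, 13.5, 13.7 and 15.7 CPM in pre-extinction ABX libraries and 15.8, 23.01 and 14.9 CPM in pre-extinction non-ABX libraries. ABX and non-ABX libraries overlapped at both stages. The averaged log2 fold change was -0.39 (standard error 0.11, adjusted p in edgeR 0.0653), and with the GC offset -0.29 (adjusted p = 0.0380), which is past the threshold.

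Kcnj4 (Entrez 16520, chromosome 15, 79480226 to 79512511, mm10) encodes Kir2.3, a strong inward rectifier of forebrain neurons. Kcnj4 had 70.1, 66.6, 95.4 and 96.7 CPM in post-extinction ABX libraries, 123, 122, 112 and 91.3 CPM in post-extinction non-ABX libraries, 46.5, 68.7, 60.4 and 86.9 CPM in pre-extinction ABX libraries and 84.9, 149 and 70.1 CPM in pre-extinction non-ABX libraries. Relative to its mean it was the most variable member between libraries, with pre-extinction non-ABX replicate 3 far above the other 2 libraries of its group. The averaged log2 fold change was -0.54 (standard error 0.16, adjusted p in edgeR 0.0703), and -0.26 (adjusted p = 0.0486) with the GC offset. Without that 1 library the averaged value was -0.34. With the offset 3 members were called, all lower, against 3.86% of all genes in either direction. They were Kcnk4, Kcnj4 and Kcnv1 (log2 fold change -0.21, adjusted p = 0.0486, against -0.08 without the offset).

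After extinction, ABX against non-ABX libraries gave 0 called members by edgeR, DESeq2 and limma-voom alike, against 0.0178%, 1.08% and 1.82% of all genes in that order. There were 5 members at an unadjusted p under 0.05 (4 lower, 1 higher), against 13.3%. Fold changes were negative for 29 of 34 members (median -0.10 against 0.01 over all genes). Libraries did not overlap for 3 members that were lower (Kcnc1, Kcnq5 and Kcnv1), against 6.36% of all genes, and for 1 that was higher (Kcnn3), against 4.74%. Kcnc1 had a log2 fold change of -0.18 (standard error 0.06, adjusted p in edgeR 0.270), Kcnj3 -0.26 (SE 0.09, 0.274) and Kcnn3 0.24 (SE 0.09, 0.314).

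Kcnj3 encodes GIRK1, the subunit that G protein-gated channels of the cortex share. Kcnj3 was at 60.2, 71.6, 74.03 and 63.04 CPM in post-extinction ABX libraries, 71.2, 82.01, 81.5 and 87.5 CPM in post-extinction non-ABX libraries, 73.9, 85.7, 92.7 and 72.9 CPM in pre-extinction ABX libraries and 81.4, 83.8 and 79.6 CPM in pre-extinction non-ABX libraries. The values of the post-extinction ABX group overlapped those of the post-extinction non-ABX group through replicate 1 of the non-ABX group, whose other 3 libraries were above every post-extinction ABX library. Its transcript overlaps Gm26794 on the other strand by 1080 bases.
Kcnv1 encodes Kv8.1, a silent subunit that forms no channel alone and modifies Kv2 channels. Kcnv1 had 108, 111, 102 and 80.9 CPM in post-extinction ABX libraries, 117, 121, 121 and 112 CPM in post-extinction non-ABX libraries, 119.8, 112, 141 and 104 CPM in pre-extinction ABX libraries and 113, 109.9 and 121 CPM in pre-extinction non-ABX libraries. Its post-extinction ABX libraries were all below its post-extinction non-ABX libraries, replicate 4 the lowest of all 15.
Kcnn3 encodes SK3, a calcium-activated channel of the afterhyperpolarization. Kcnn3 was at 17.8, 23.1, 18.7 and 17.6 CPM in post-extinction ABX libraries, 14.9, 17.6, 16.1 and 16.9 CPM in post-extinction non-ABX libraries, 21.6, 19.6, 19.6 and 17.7 CPM in pre-extinction ABX libraries and 19.5, 18.4 and 20.3 CPM in pre-extinction non-ABX libraries. Here the post-extinction non-ABX libraries were the low ones, and all 4 were below the lowest post-extinction ABX library, the closest by less than the rounding of these values.

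Before extinction, edgeR, DESeq2 and limma-voom each called 0 members between ABX and non-ABX libraries, against 0.00595%, 0.0892% and 0.00595% of all genes in that order. There were 4 members at an unadjusted p under 0.05, all lower, against 16% of all genes in either direction. The log2 fold changes were -0.62 for Kcnj4 (standard error 0.23, adjusted p in edgeR 0.311), -0.42 for Kcnk4 (SE 0.16, 0.311) and -0.16 for Kcnc1 (SE 0.07, 0.311). Without pre-extinction non-ABX replicate 3, the value was -0.24 for Kcnj4 and -0.19 for Kcnk4. Kcnc1 was the 1 member whose libraries did not overlap, against 3.14% of all genes lower without overlap, and its log2 fold change with the GC offset was 0.09.

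Endothelial marker sums did not overlap between ABX and non-ABX libraries at either stage, while those of neurons did. The sum of 6 endothelial markers was 151 to 201 CPM in post-extinction ABX libraries against 207 to 223 CPM in post-extinction non-ABX libraries, and 143 to 198 CPM in pre-extinction ABX libraries against 213 to 243 CPM in pre-extinction non-ABX libraries. The sum of 6 excitatory neuron markers was 7173 to 8101 CPM in post-extinction ABX libraries, 7660 to 8684 CPM in post-extinction non-ABX libraries, 6497 to 7618 CPM in pre-extinction ABX libraries and 7147 to 8877 CPM in pre-extinction non-ABX libraries. The interneuron sum, also over 6 markers, was 763 to 868 CPM in post-extinction ABX libraries, 786 to 817 CPM in post-extinction non-ABX libraries, 774 to 900 CPM in pre-extinction ABX libraries and 792 to 834 CPM in pre-extinction non-ABX libraries. No marker of these 3 lists was at 0 in any library. The part of cell composition in the members' values was not tested, and in bulk tissue fewer cells of a type and less RNA per cell cannot be told apart.

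**Figure D3:**
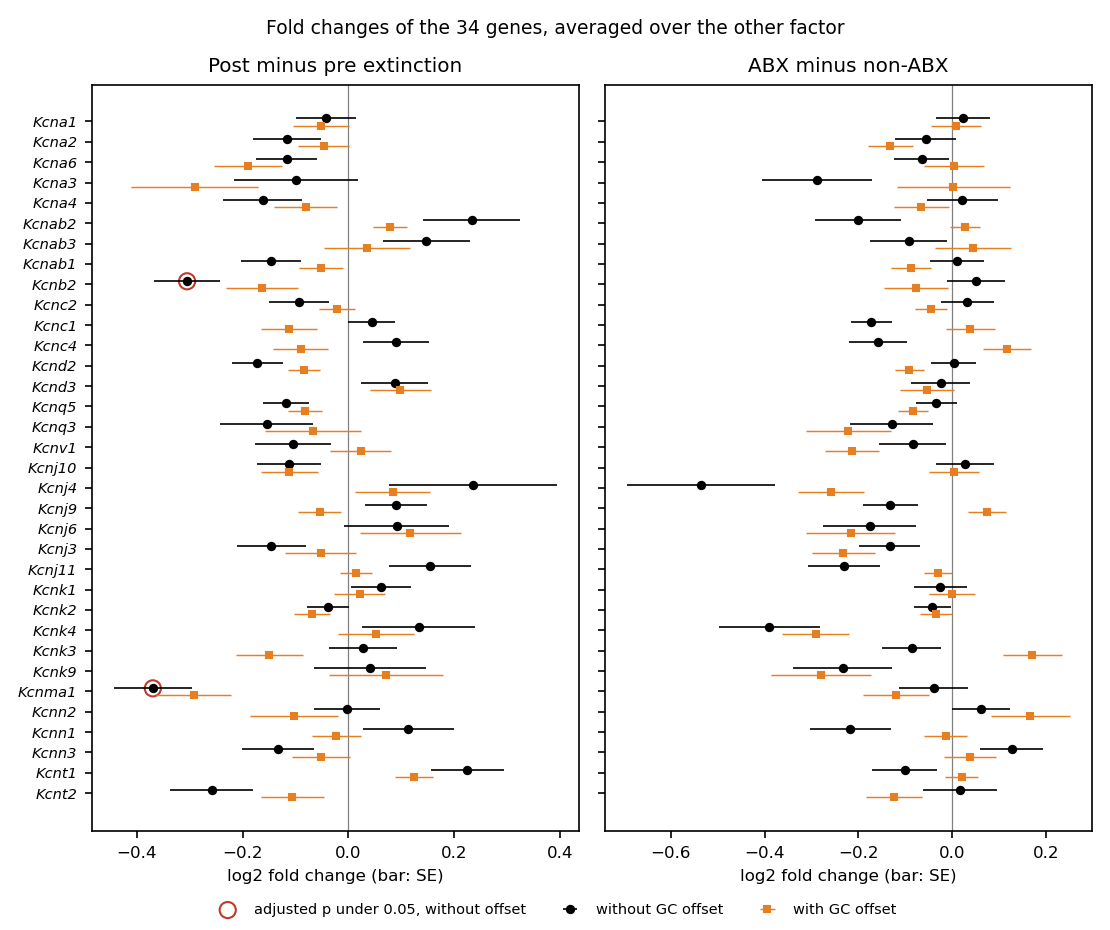
Log2 fold change of each of the 34 genes (bar, SE) for post minus pre extinction (left) and ABX minus non-ABX (right), each averaged over the other factor, from all 15 libraries in black and with a GC offset in orange; rings mark calls at an adjusted p under 0.05 without the offset. Kcnma1 (-0.37) and Kcnb2 (-0.31) are the 2 ringed genes, both in the stage comparison, and several values on the right, Kcnc1 among them, move across 0 with the offset.

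The direction of a member's fold change went with the GC content of its transcript. Members divide into 17 above 50% GC and 17 at or below it, and their median GC of 49.9% was close to the 49.8% of all tested genes. In the stage comparison averaged over arms, 14 of the 17 members of low GC were negative (median -0.13) against 5 of the 17 of high GC (median 0.09). In the averaged ABX comparison, 9 of the 17 of low GC were negative (median -0.02) against 15 of the 17 of high GC (median -0.13). Across the 34 members Pearson's r between log2 fold change and GC was 0.76 for stage and -0.58 for ABX, and across all genes 0.55 and -0.59; genes share libraries and are not independent. With the GC offset the members' r was 0.09 for stage and 0.48 for ABX, so for ABX the relation turned round rather than going to 0. With the offset 23 of 34 members were negative for stage (median -0.05) and 20 of 34 for ABX (median -0.04).

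**Figure D4:**
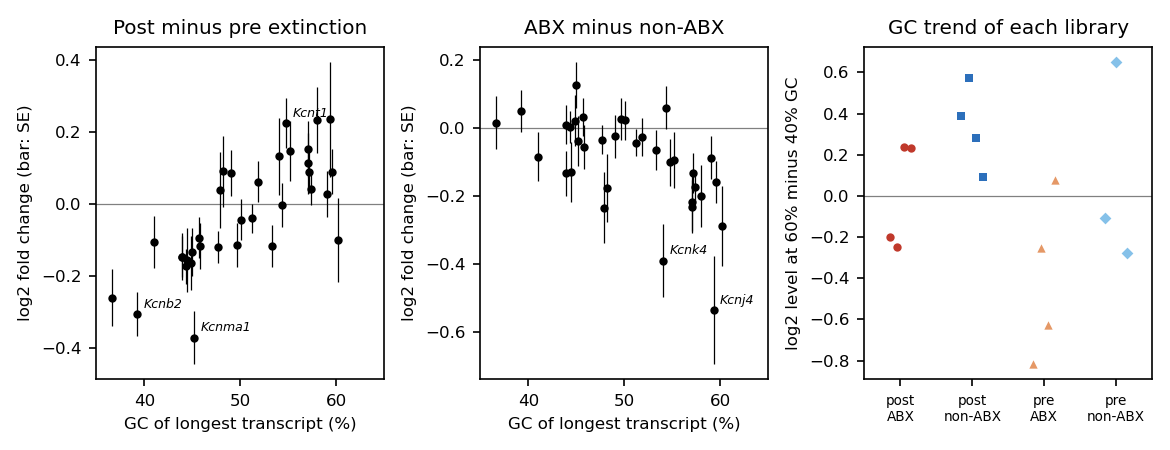
Log2 fold change (bar, SE) against GC content of the longest transcript for the 34 genes, post minus pre extinction (left) and ABX minus non-ABX (middle), and the GC trend of each library as the fitted log2 level at 60% minus 40% GC (right). Fold changes go up with GC on the left (r = 0.76) and down in the middle (r = -0.58), and the trend of pre-extinction ABX libraries reaches -0.82.

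By family, the 5 Kv1 genes all had negative stage fold changes, from -0.16 to -0.04, with 1 at an unadjusted p under 0.05, near the 20.4% of all genes. Kcna1 showed the least. Kcna1 had 314, 281, 274 and 269 CPM in post-extinction ABX libraries, 261, 292, 289.5 and 314 CPM in post-extinction non-ABX libraries, 309, 293, 331 and 279 CPM in pre-extinction ABX libraries and 282, 266 and 317 CPM in pre-extinction non-ABX libraries. Its groups overlapped throughout. Their beta subunits were mixed, Kcnab1 at -0.15, Kcnab2 at 0.23 and Kcnab3 at 0.15 (edgeR adjusted p = 0.183, 0.187 and 0.300). Kcnab2 was at 448, 409.9, 500.3 and 535 CPM in post-extinction ABX libraries, 557, 577, 502 and 496 CPM in post-extinction non-ABX libraries, 333, 412, 356 and 479 CPM in pre-extinction ABX libraries and 408, 566 and 414 CPM in pre-extinction non-ABX libraries. The low Kcnab2 libraries, pre-extinction ABX replicates 1 and 3, were also those of the lowest GC trend (-0.82 and -0.63).
The 3 Kv3 genes ran from -0.09 to 0.09 for stage and from -0.17 to 0.03 for ABX. Kcnc2 had 155, 153, 137 and 148 CPM in post-extinction ABX libraries, 147, 138, 154 and 156 CPM in post-extinction non-ABX libraries, 172, 155, 177 and 145 CPM in pre-extinction ABX libraries and 154, 139.8 and 169.9 CPM in pre-extinction non-ABX libraries. Kcnc2 encodes Kv3.2, the partner of Kcnc1 in interneurons, and had an ABX log2 fold change of 0.03 (edgeR adjusted p = 0.710). Of the Kv7 genes, Kcnq3 and Kcnq5 were both negative in each averaged comparison, from -0.15 to -0.12 for stage and from -0.13 to -0.03 for ABX.

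The 3 GIRK genes Kcnj3, Kcnj6 and Kcnj9 were all negative for ABX, from -0.18 to -0.13. Only 1 of them, Kcnj9, had an unadjusted p under 0.05, near the 30.6% of all genes in either direction. With the GC offset Kcnj9 turned to 0.07 (edgeR adjusted p = 0.272), and Kcnj3 and Kcnj6 were at -0.23 and -0.22. Kcnj9 was at 176, 164, 187 and 173 CPM in post-extinction ABX libraries, 185, 199, 189.8 and 180.1 CPM in post-extinction non-ABX libraries, 151, 166, 149 and 180.0 CPM in pre-extinction ABX libraries and 164, 208 and 169 CPM in pre-extinction non-ABX libraries. Its groups overlapped for stage in both arms. Kcnj10 had 279, 221, 229.6 and 229.8 CPM in post-extinction ABX libraries, 246, 273, 245 and 241 CPM in post-extinction non-ABX libraries, 316, 259.9, 262 and 269 CPM in pre-extinction ABX libraries and 254, 239 and 271 CPM in pre-extinction non-ABX libraries. Kcnj10 was highest in pre-extinction ABX replicate 1, which also had the highest astrocyte marker sum of all libraries (1470 CPM).
Kcnj11, the Kir6.2 pore of ATP-sensitive channels that couple metabolism to excitability, had an averaged ABX log2 fold change of -0.23 (standard error 0.08, adjusted p in edgeR 0.0813) and -0.03 with the GC offset. Kcnj11 was at 54.1, 49.2, 58.8 and 61.3 CPM in post-extinction ABX libraries, 66.2, 67.4, 66.4 and 60.5 CPM in post-extinction non-ABX libraries, 44.7, 51.5, 44.8 and 58.4 CPM in pre-extinction ABX libraries and 55.8, 70.1 and 50.8 CPM in pre-extinction non-ABX libraries. ABX and non-ABX libraries overlapped at both stages.

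All 5 K2P genes were negative for ABX without the GC offset, from -0.39 for Kcnk4 to -0.03 for Kcnk1. Of these 2, Kcnk4 and Kcnk9, had an unadjusted p under 0.05, near the 30.6% of all genes in either direction. With the GC offset Kcnk3 turned to 0.17 (edgeR adjusted p = 0.115) and Kcnk1 was at 0.0001. Kcnk4, Kcnk9 and Kcnk2 were then at -0.29, -0.28 and -0.03. Kcnk1 had 94.7, 81.4, 84.5 and 83.7 CPM in post-extinction ABX libraries, 94.4, 91.5, 84.998 and 79.4 CPM in post-extinction non-ABX libraries, 89.2, 78.8, 78.6 and 83.2 CPM in pre-extinction ABX libraries and 79.2, 93.9 and 78.5 CPM in pre-extinction non-ABX libraries. Kcnk1 held to a narrow range, and Kcnk2 (TREK1) to a narrower one of 45.1 to 52.1 CPM over all 15 libraries. Among the SK genes, Kcnn1 was at -0.22 for ABX, Kcnn2 at 0.06 and Kcnn3 at 0.13 (edgeR adjusted p = 0.113, 0.506 and 0.208). Kcnn2 was at 31.3, 32.04, 26.1 and 29.9 CPM in post-extinction ABX libraries, 26.4, 26.3, 28.6 and 26.5 CPM in post-extinction non-ABX libraries, 28.7, 24.9, 30.6 and 28.6 CPM in pre-extinction ABX libraries and 28.4, 25.8 and 31.8 CPM in pre-extinction non-ABX libraries. These SK2 values overlapped between ABX and non-ABX libraries at both stages. The BK gene Kcnma1 had an ABX log2 fold change of -0.04 (SE 0.07), and Kcnb2 one of 0.05 (SE 0.06), neither past the test (edgeR adjusted p = 0.737 and 0.590). With the GC offset they were at -0.12 and -0.08 (edgeR adjusted p = 0.313 and 0.520). With block and GC offset Kcnma1 was called lower for ABX (-0.15, edgeR adjusted p = 0.0488), where 1752 of 16232 genes were called.
Of the remaining members, over all libraries, Kcna2 ran from 419 to 589 CPM, Kcna3 (Kv1.3) from 7.24 to 14.4, Kcna6 (Kv1.6) from 132 to 186, Kcnab1 from 78.9 to 106 and Kcnab3 from 48.7 to 75.8. Kcnc4 (Kv3.4) ran from 56.96 to 88.8 CPM, Kcnd3 (Kv4.3) from 96.8 to 135, Kcnq3 from 39.03 to 65.6 and Kcnj6 (GIRK2) from 39.4 to 68.2. Kcnk3 (TASK1) ran from 20.1 to 28.1 CPM, Kcnk9 from 17.05 to 32.7, Kcnn1 (SK1) from 12.8 to 21.3 and Kcnt2 from 31.9 to 54.01. None of these 13 was called in any of the 7 comparisons by edgeR on all 15 libraries without a block or offset. With the replicate block Kcna3 was called lower for ABX averaged over stages, where 666 of 16816 genes were called. With block and GC offset so were Kcnq3, Kcnj6, Kcnk9 and Kcnt2, where 1752 of 16232 genes were called. For stage averaged over arms limma-voom called Kcna6, Kcnab1 and Kcnt2 lower and Kcnab3, Kcnc4 and Kcnn1 higher, against 37.8% of all genes. DESeq2 called Kcnt2 lower there, against 4.19%. In the non-ABX arm limma-voom also called Kcnab3, Kcnn1 and Kcnt2 (19% of all genes), and in the ABX arm Kcnt2 (2.77%). With 1 library left out edgeR called Kcnn1 and Kcnt2 in some fits.

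Genes that work with these channels were taken from 5 lists. Of 27 tested other pore-forming potassium channel genes, 36 auxiliary or anchoring proteins, 25 genes of GIRK signalling, 12 sodium and HCN channel genes and 10 potassium transport genes, 2 were called in any of the 7 comparisons, both in GIRK signalling and both in the stage comparison averaged over arms. Kctd16, an auxiliary subunit of the GABA-B receptor, which opens GIRK channels, was lower after extinction. It had 10.1 ± 0.937 CPM in post-extinction ABX libraries and 10.3 ± 0.694 in post-extinction non-ABX libraries. It had 13.995 ± 1.40 CPM in pre-extinction ABX libraries and 14.5 ± 0.633 in pre-extinction non-ABX libraries (SD, n = 4, 4, 4 and 3 in this order). Its log2 fold change was -0.48 (standard error 0.07, adjusted p in edgeR 0.00648). Rgs6, a regulator that speeds the closing of GIRK channels, was lower with a log2 fold change of -0.19 (standard error 0.04, adjusted p in edgeR 0.0405). With these 2, 10 of the 25 genes had a lower and 1 a higher value at an unadjusted p under 0.05. Of all genes 20.4% did in either direction (0.963% called). The list median was -0.01.

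In the averaged ABX comparison edgeR without the GC offset called no listed gene, with adjusted p from 0.0604 to 0.0746 for the genes named here. With the offset it called 8 of the 110 listed genes, against 3.86% of all genes, among them Kcnmb1 (adjusted p = 0.0240), Cntnap1 (0.0355), Kcnj12 (0.0398) and Gng4 (0.0449). Without the offset, 47.5% of all genes tested had a negative fold change in this comparison (median 0.01). Sodium and HCN channel genes had 9 of 12 negative fold changes (median -0.14), among them Hcn3 (-0.47), Hcn2 (-0.33) and the sodium channel beta subunit Scn4b (-0.27). Potassium transport genes had 8 of 10 negative (median -0.09), among them Slc12a5 (-0.30), the potassium-chloride exporter of neurons. Of the other pore genes 15 of 27 were negative (median -0.03), with Kcnj12 (Kir2.2) at -0.47 and the glial Kcnj16 (Kir5.1) at 0.28. Auxiliary and anchoring genes had 21 of 36 negative (median -0.03), with Cntnap1 (Caspr) at -0.34, Cntn2 at -0.30, which place channels around the node of Ranvier, and the BK beta subunit Kcnmb1 at -0.54. Kcnmb1 was near the floor, at 0.37 to 0.95 CPM over all libraries, and which cells it came from was not tested. GIRK signalling genes had 14 of 25 negative (median -0.03), with the G protein subunits Gng4 at 0.18, Gnb4 at 0.24 and Gnb2 at -0.43. With the GC offset the value of Hcn2 was 0.08, the 1 gene of these 12 whose sign turned.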

How the data were processed

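Raw counts per Entrez gene identifier, 1 column for each of 15 libraries, were deposited by the authors. The tools named in the submitters' processing notes are STAR 2.3.0 and CASAVA 1.8.2, with mm10 as the build, and per the labels the SMARTer V4 kit made the libraries, which keep no strand. The counting program, its annotation and its treatment of reads shared between paralogs are not given here, so values of close family members may share reads. The labels name dissected tissue as the source and also speak of sorted cells.

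From these counts, 25275 of 27179 identifiers (99.7% of counts) were matched to a symbol through RefSeq (GRCm38.p6). Analysis used R 4.3.3 with edgeR 4.0.16: filterByExpr (minimum count 10, minimum total 15), TMM scaling (factors 0.969 to 1.03) and a quasi-likelihood fit of 4 group means to all 15 libraries. The 7 contrasts were tested two-sided and p-values adjusted by Benjamini-Hochberg over 16816 genes. Shares of all genes called or at an unadjusted p under 0.05 count lower and higher genes together. Standard errors are the fold change over the square root of F. The biological coefficient of variation was 0.112, so at these counts the spread between libraries sets the precision. Transcript length and GC come from the longest GENCODE M21 transcript, known for 16232 tested genes, and the offset was a spline with 5 degrees of freedom.

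The members and all lists were chosen with earlier results of these data known. Values of every library are given for the 3 members of smallest p in each contrast, each called member and the highest member of each family. From each partner list fold changes are given for the called genes and the 3 of smallest p in the averaged ABX contrast, of which 3 are left out of the text. Other settings were DESeq2 1.42.0, limma 3.58.1 voom with quality weights, RLE scaling, no filter, a mean of at least 1 CPM, a replicate block, the GC offset, both together, the compared groups alone and each library left out. Omitting the 4 libraries of steepest GC trend was added after seeing the data. The fits were tested on simulated counts. All per-sample columns were used.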

Additional observations from a re-analysis of the deposited data

Results flagged for a closer look

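In 5 of 102 gene-by-group sets of 4 libraries, 1 library stood apart from the other 3 by Dixon's 95% criterion, where chance gives about 5.1. Kcnj10, the Kir4.1 channel of glia, accounts for 3 of them: it was at 279 CPM in post-extinction ABX replicate 1 (others 220.5 to 229.8 CPM), at 273 CPM in post-extinction non-ABX replicate 2 (others 241 to 246 CPM) and at 316 CPM in pre-extinction ABX replicate 1 (others 259.9 to 269 CPM). The summed astrocyte markers were highest of their group in post-extinction ABX replicate 1 (1364 CPM) and in pre-extinction ABX replicate 1 (1470 CPM), and at 1159.9 CPM in post-extinction non-ABX replicate 2 they lay within the range of theirs. Their part in the Kcnj10 values was not tested.

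Kcnc1 was at 275 CPM in post-extinction non-ABX replicate 2 (others 247 to 251 CPM), the library with the steepest positive GC trend of its group (0.57). Kcnn2 was at 28.6 CPM in post-extinction non-ABX replicate 3 (others 26.3 to 26.5 CPM).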

How the results depend on the processing

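The small median fold changes of the 34 members moved by less than the SD between libraries of the members' median deviation (0.0545) in all 172 recomputations, but many changed by over 1.5 times. For ABX averaged over stages the median was -0.04 without post-extinction ABX replicate 4 and -0.04 with the GC offset. For stage averaged over arms it was -0.01 without pre-extinction non-ABX replicate 4 and -0.03 without post-extinction non-ABX replicate 1 or pre-extinction ABX replicate 3. With each library left out it ran from -0.07 to -0.02 for ABX before extinction, -0.09 to -0.0046 for stage in ABX, -0.03 to 0.03 for stage in non-ABX and -0.07 to 0.01 for the interaction, so the last pair of medians also changed sign. Of the recomputed fold changes of the named members 459 kept their direction and side of the threshold, 31 passed it, 21 no longer passed it and 5 turned sign. With the GC offset Kcnc1 was at 0.0905 for ABX before extinction and 0.0392 averaged over stages, and with the replicate block and GC offset at 0.0854 and 0.0359. Without the 4 libraries of steepest GC trend Kcnj4 was at 0.0084 for ABX before extinction. The causes were not tested.

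Counts of called genes depended strongly on the method. For ABX after extinction the 3 genes called by edgeR compare with 182 by DESeq2, 306 by voom, 52 with the GC offset, 424 with block and offset (2 members), 32 in the compared groups alone, 0 without the 4 steepest libraries and 0 to 13 with 1 library left out. For ABX before extinction, 1 compares with 15 by DESeq2, 2 without a filter, 5 with block and offset and 1 to 28 with 1 library left out. For stage in ABX, 16 (0 members) compares with 282 (3) by DESeq2, 465 (5) by voom, 77 with the offset, 187 (1) with block and offset, 5 in the compared groups alone, 1 without the 4 steepest libraries and 3 to 238 (0 to 1) with 1 library left out. For stage in non-ABX, 0 compares with 19 by DESeq2, 2 without a filter, 3191 (11) by voom, 2 with the offset, 29 with block and offset and 0 to 1 with 1 library left out. For the interaction, DESeq2 called 4 genes and edgeR 0. For ABX averaged over stages, 105 (0 members) compares with 1977 (4) by DESeq2, 902 (1) by voom, 627 (3) with the offset, 1752 (9) with block and offset, 1 without the 4 steepest libraries and 4 to 3057 (0 to 6) with 1 library left out. For stage averaged over arms, 162 (2 members) compares with 704 (4) by DESeq2, 6358 (20) by voom, 318 (1) with the offset, 586 with block and offset, 5 (0) without the 4 steepest libraries and 14 to 2262 (0 to 8) with 1 library left out. The extremes for ABX averaged over stages came without post-extinction non-ABX replicate 2 (4) and pre-extinction ABX replicate 4 (3057), and for stage averaged over arms without pre-extinction non-ABX replicates 4 (14) and 3 (2262).

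Whether replicate numbers pair the samples could not be told. Deviations of 21 same-numbered pairs had r from -0.49 to 0.37, and 8 were over 0.1. Differently numbered pairs were not set beside them, so these values cannot decide it. With the replicate block, calls for ABX averaged over stages went to 666 genes (2 members) and for stage averaged over arms to 96 genes (1 member, Kcnma1, adjusted p = 0.0153), with Kcnb2 at adjusted p = 0.0543. RLE scaling and a mean of at least 1 CPM moved no count of calls by over 1.5 times. With at least 330 counts per member and library, the spread between libraries rather than counting error limits these values.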
